A study of Mus musculus with 6 samples.

Results

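Mitochondrial ribosomal proteins were taken as every protein-coding gene of the count table whose name starts with Mrpl or Mrps followed by a digit. This gave 78 genes of the 25904 in the table, 49 named for the large subunit (Mrpl) and 29 for the small subunit (Mrps). Of these, 77 had enough counts to be tested, 48 and 29. The study compared liver polyadenylated RNA of C57BL/6J mice of 2 genotypes by sequencing, with 3 libraries wild type for Ptprd (Ptprd+/+, here WT) and 3 heterozygous for it (Ptprd+/-, here Het). Ptprd encodes protein tyrosine phosphatase delta, a receptor-type phosphatase. How the Ptprd allele was altered, and the age, sex and diet of the animals, were not given in the sources used here. Per the series design there were 3 livers of each genotype. If any libraries shared a mouse, the p-values below would measure only technical spread.

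Mitochondria translate the few messages of their own genome, which encode core subunits of the respiratory chain and of ATP synthase, on a ribosome that differs from the one in the cytosol. Its RNAs come from mitochondrial DNA, but all of its proteins are encoded in the nucleus, made in the cytosol and imported. The small subunit reads the messenger RNA and the large subunit joins the amino acids. Many of the proteins descend from those of the bacterial ribosome, and the others were gained in the mitochondrial lineage. Liver cells are rich in mitochondria and need oxidative phosphorylation for urea synthesis and gluconeogenesis.

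Total counts ran from 37924266 to 72954187 per library, and the third Het library (Het 3) was the deepest. Levels are given as CPM, that is, counts divided by the effective (TMM-scaled) library size and brought to a common total. Ptprd measured 128, 127 and 132 CPM in WT 1 to 3 and 54.1, 78.1 and 63.5 CPM in Het 1 to 3. All Het libraries therefore lay below all WT libraries at the targeted gene, with a log2 fold change of -0.99 (SE 0.14). This difference did not pass edgeR's quasi-likelihood test after Benjamini-Hochberg adjustment over 14606 genes (adjusted p = 0.298), and an exact two-sided permutation test gave 0.1, the smallest p that 3 against 3 libraries allow. It passed in DESeq2, as given in the closing section.

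Most mitochondrial ribosomal protein transcripts had somewhat higher values in Het than in WT livers, by a similar small amount. The log2 fold change (Het over WT) was above 0 for 69 of the 77 tested members, while 49.2% of all tested genes lay above 0. Its median was 0.14, a difference of 10.0%, against 0.00 over all tested genes. None of the members passed edgeR's test at an adjusted p of 0.05, the smallest adjusted p being 0.632. In that test 0% of all genes passed. At an unadjusted p under 0.05, edgeR counted 4 members, Mrps18b, Mrps21, Mrps12 and Mrpl2, all higher in Het. These are 5.19% of the members, against 3.39% of all genes higher at that level, 3.77% lower and 7.15% in either direction, so the single-gene tests gave the members a share near the background. The number moved with single libraries: it was 1 without WT 1 and also 1 without WT 2, 2 without Het 1, and 14 without Het 3. DESeq2 called none of the members at an adjusted p under 0.05, against 0.452% of all genes, and placed 2 of them under an unadjusted p of 0.05, against 6.79% of all genes. In these bulk samples, a change in the number of cells of a type and a change in RNA per cell cannot be told apart.

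The fold changes of the small subunit had a median of 0.15, with the middle 50% of the genes between 0.08 and 0.20, and 27 of 29 lay above 0. For the large subunit the median was 0.13, with the middle 50% between 0.05 and 0.17, and 42 of 48 lay above 0. The largest member value was 0.42, for Mrps18b. Each median is a difference of about 10%, namely 11.2% for the small subunit and 9.19% for the large. The cytosolic ribosomal proteins, which build the other ribosome of the cell, had a median of 0.07 over 79 tested genes, with 49 above 0 and 30 below.

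**Figure D1:**
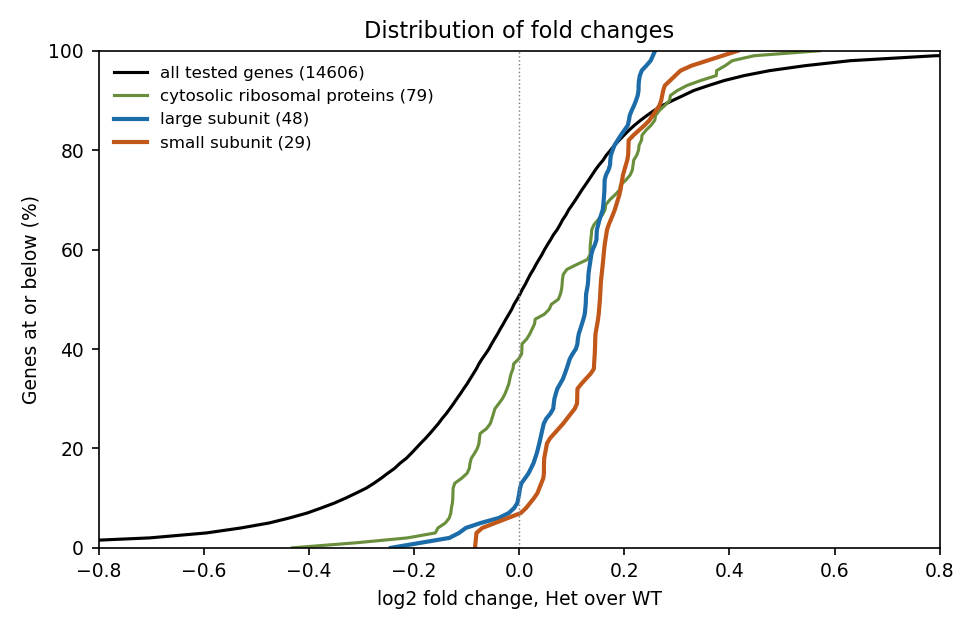
Cumulative share of genes (percent, vertical axis) at or below each log2 fold change (Het over WT, horizontal axis), for all tested genes, the cytosolic ribosomal proteins and the large and small mitochondrial subunits. The all-gene median lies at 0.00 and the subunit medians at 0.13 and 0.15.

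Added together, the members measured 2064, 2045 and 2086 CPM in WT 1 to 3 and 2404, 2266 and 2088 CPM in Het 1 to 3. The sum in Het 3 was thus close to WT 3, the highest WT library, and Het 1 and Het 2 lay above. The means were 2065 ± 20.2 (SD, n = 3) and 2252 ± 158 CPM (SD, n = 3), a ratio of 1.09. For the small subunit the sums were 641, 650 and 647 CPM in WT against 770, 716 and 656 CPM in Het. For the large subunit they were 1423, 1395 and 1439 CPM in WT against 1634, 1550 and 1432 CPM in Het. In CPM, all Het libraries stood above all WT libraries for the small subunit sum, Het 3 only narrowly. For the large subunit Het 3 fell inside the WT range. As a share of total counts without TMM scaling, the small subunit made up 0.0670% in Het 3, below the 0.0686% of WT 2. In CPM, the WT libraries were close together and the Het libraries were spread out, with Het 1 highest. As shares of total counts, all members made up 0.207, 0.216 and 0.205% in WT 1 to 3. In Het 1 to 3 they made up 0.225, 0.226 and 0.213%. Without TMM scaling, Het 2 was thus highest and the groups overlapped, with similar spreads.

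The highest library was Het 1 for 47 of the 77 members (61.0%), whereas Het 1 was the highest library for 22.8% of all tested genes. Het 2 was highest for 20 members, Het 3 for 2, and the WT libraries together for the remaining 8. The lowest value was in WT 2 for 25 members, in Het 3 for 19 and in WT 1 for 17. Over all 14606 tested genes, it was in WT 2 for 2103, in Het 3 for 2328 and in WT 1 for 2419. Het 1 was lowest for 3542 of all tested genes, more than any other library, and for 2 members. In the small subunit Het 1 was highest for 22 of 29 members, and in the large subunit for 25 of 48. For the cytosolic ribosomal proteins Het 1 was also the highest library in 46 of 79. On the scale of log2 CPM relative to each gene's mean, the small subunit median was -0.07, -0.06 and -0.06 in WT 1 to 3 and 0.19, 0.09 and -0.06 in Het 1 to 3. The large subunit gave -0.03, -0.08 and -0.04 in WT and 0.14, 0.08 and -0.05 in Het. On this scale Het 3 lay within the WT range for the large subunit and just above all 3 WT libraries for the small subunit. Leaving out Het 1 lowered the median fold change to 0.10 for the small and 0.08 for the large subunit, with 22 of 29 and 35 of 48 members still above 0.

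**Figure D2:**
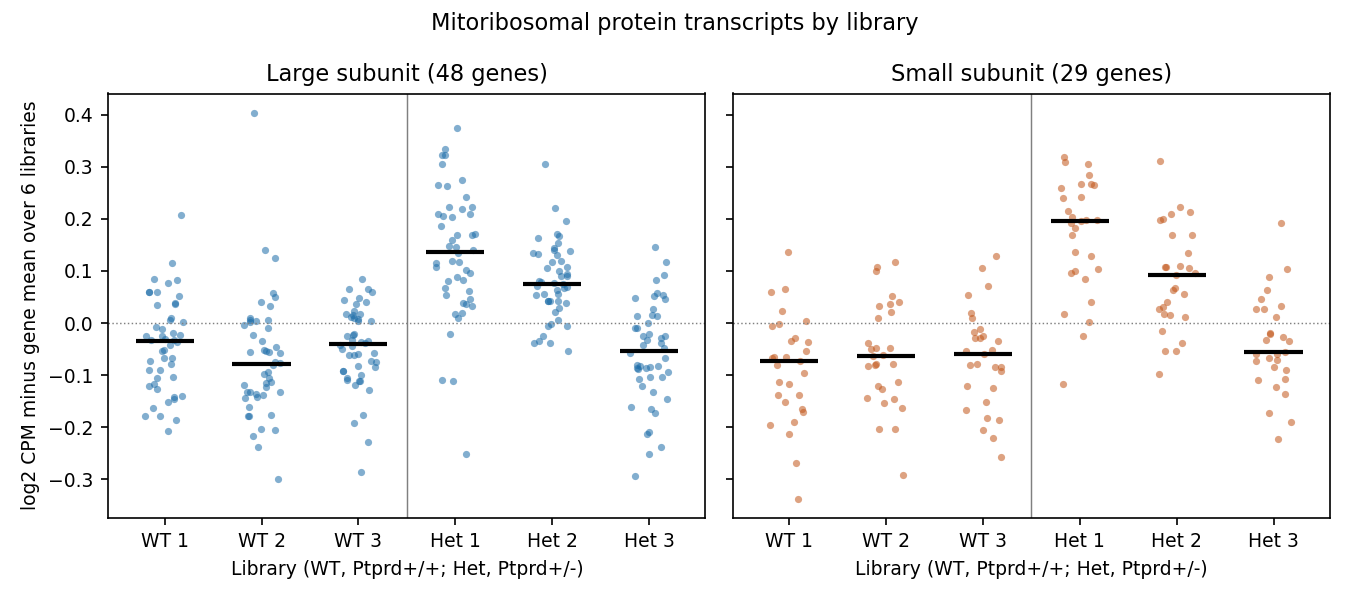
Level of each tested member (points) as log2 CPM relative to that gene's mean over the 6 libraries, by library and subunit, with the median marked. The points and marked medians have no prior count. The medians given in this caption are from log2 CPM with a prior count of 2. Het 1 has the highest medians (0.19 small, 0.14 large) and Het 3 (-0.06 and -0.05) lies close to the WT libraries.

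For 19 of the 77 members (24.7%) every Het library lay above every WT library, against 7.15% of all tested genes, and for none did every Het library lie below, against 6.72%. The 19 were 8 small subunit and 11 large subunit members. Some of them were barely apart, such as Mrpl17 (39.76 CPM in Het 3 and 39.73 in WT 3) and Mrpl24 (61.74 CPM in Het 3 and 61.62 in WT 3). The shares over all genes count such narrow cases too. The members were measured in the same 6 libraries and varied together, so these counts are not independent of each other.

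Sequence before the start sites was available for 69 of the 78 members in RefSeq (GRCm38.p6), as 250 bases before to 50 after the annotated start. Where a gene had several annotated starts, a motif in the window of any of them was counted. The 7 letters CCGGAAG, or CTTCCGG on the other strand, form a core of the sites bound by ETS factors such as GABP (nuclear respiratory factor 2), a known activator of nuclear genes for mitochondrial proteins. They were present in 26 of the 69 member promoters (37.7%) and in 9.93% of the 27025 genes with such an entry. These 27025 genes, the background for each motif here, were not restricted to protein-coding genes or to genes tested in these livers. The members are protein-coding and nearly all were tested, so the shares compare unlike sets. The tested members with the ETS core had a median log2 fold change of 0.16 and those without it 0.13. The NRF1 core GCGCATGCG, searched on both strands, was present in 7 members (10.1%) against 1.95% of all genes. The YY1 core AAGATGGCG, also on both strands, was present in 8 members (11.6%) against 1.64%, and with a further G at its end in 5 (7.25%) against 0.995%. At least 1 of the 3 motifs was found in 36 members. A match describes these letters only and does not show binding. The stretches printed below are the longest exon-free parts of the 250 bases before the start, and capitals mark the ETS core.

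In the small subunit the values with the smallest unadjusted p were those of Mrps18b, a member of the S18 family gained in mitochondria. It measured 15.4, 14.0 and 15.1 CPM in WT 1 to 3 and 21.1, 19.8 and 18.4 CPM in Het 1 to 3. Every Het library lay above every WT library. The means were 14.8 ± 0.746 and 19.8 ± 1.38 CPM (SD, n = 3 each), a log2 fold change of 0.42 (SE 0.10), with an unadjusted p of 0.00353 and an adjusted p of 0.632 in edgeR. In DESeq2 its adjusted p was 0.193. Mrps18b (chr17:35910379-35916389, mm10) shares 30.5% of its exon bases with exons on the opposite strand. The libraries were stranded, but which strand the counting used is not known here, so reads of the overlapping gene may be part of this value.

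Mrps21, a protein of the small subunit with a bacterial counterpart, measured 16.9, 17.0 and 18.9 CPM in WT against 22.5, 22.5 and 20.5 CPM in Het. The groups did not overlap, and the log2 fold change was 0.31 (SE 0.10; edgeR adjusted p = 0.685). Mrps12, the counterpart of the bacterial decoding-centre protein S12, measured 27.1, 26.4 and 29.7 CPM in WT against 37.6, 32.7 and 29.9 CPM in Het. Its groups stood apart only narrowly, with WT 3 next to Het 3, at a log2 fold change of 0.27 (SE 0.11; edgeR adjusted p = 0.694). Mrps12 (chr7:28739641-28741820, mm10, reverse strand) starts 172 bases from the start of Sars2, the mitochondrial seryl-tRNA synthetase, which runs the other way. Sars2 measured 9.59, 11.1 and 9.37 CPM in WT against 12.9, 12.5 and 11.2 CPM in Het, again without overlap, at a log2 fold change of 0.28 (SE 0.12). The stretch that lies between the 2 genes, chr7:28741822-28741991 (GRCm38.p6, reverse strand), is shown because both neighbours had higher values in Het. It holds none of the 3 motifs. The ETS core was found elsewhere in the sequence scored for Mrps12, in a place not located here, so Mrps12 is among the 26 members counted above:

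Mrps12: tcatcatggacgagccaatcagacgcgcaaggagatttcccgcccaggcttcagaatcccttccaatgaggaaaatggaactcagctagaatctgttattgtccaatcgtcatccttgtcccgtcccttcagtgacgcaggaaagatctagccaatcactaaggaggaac

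Mrps34, a mitochondrial addition needed for the stability of the small subunit, measured 33.6, 33.4 and 34.99 CPM in WT against 46.1, 37.3 and 37.7 CPM in Het, a log2 fold change of 0.25 (SE 0.11). Het 1 stood above the other 2 Het libraries, and the groups did not overlap. It shares 63.4% of its exon bases with exons of the opposite strand and 37.0% with exons of the same strand, so its reads are uncertain too. Mrps7, an early-binding protein of the head of the small subunit, measured 64.0, 60.2 and 63.2 CPM in WT against 80.7, 70.0 and 65.8 CPM in Het, a log2 fold change of 0.21 (SE 0.10). Mrps11 measured 13.6, 14.2 and 14.1 CPM in WT against 18.0, 15.2 and 15.4 CPM in Het, also 0.21 (SE 0.11). In both, the groups did not overlap and Het 1 was the highest library. Mrps2 (0.14) and Mrps23 (0.15) had non-overlapping groups as well, whereas Mrps15 (0.18) and Mrps25 (0.19) overlapped. For Mrps25, 69.8% of exon bases lie opposite other exons.

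Other members with an Mrps name hardly differed in their means. Mrps17, a counterpart of bacterial S17 and one of the 3 most abundant small subunit transcripts, measured 44.3, 40.3 and 42.8 CPM in WT against 45.5, 43.1 and 39.5 CPM in Het, a log2 fold change of 0.01 (SE 0.10). Its Het libraries spanned the WT libraries on both sides. Mrps10 (0.03), Mrps14 (0.05) and Mrps30 (0.05), the last of which sits in the large subunit despite its name, were also close to 0, and Mrps10 and Mrps17 turned to -0.01 and -0.04 with total-count scaling. Mrps9 had a log2 fold change of -0.08. The stretch before the Mrps17 start, chr5:129715247-129715496 (GRCm38.p6, forward strand), is shown beside those of members with higher values. Neither it nor the whole window of Mrps17 holds any of the 3 motifs:

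Mrps17: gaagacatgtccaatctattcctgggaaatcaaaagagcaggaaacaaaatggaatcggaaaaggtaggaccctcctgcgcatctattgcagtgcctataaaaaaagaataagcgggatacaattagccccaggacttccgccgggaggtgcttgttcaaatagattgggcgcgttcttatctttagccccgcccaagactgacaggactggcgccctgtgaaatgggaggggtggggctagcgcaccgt

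The 3 S18 family members had different values. Mrps18a, which like Mrps30 sits in the large subunit, measured 24.6, 27.1 and 27.8 CPM in WT against 32.5, 29.9 and 26.9 CPM in Het, a log2 fold change of 0.17 (SE 0.11). Mrps18c, the member closest to bacterial S18, measured 14.5, 15.1 and 13.3 CPM in WT against 13.9, 13.8 and 12.9 CPM in Het, a log2 fold change of -0.08 (SE 0.11). Mrps18b, given above, was the one of the 3 whose groups did not overlap. The differences between these fold changes were not tested. With Mrps18a and Mrps30 counted in the large subunit and Mrps36 left out, the medians of 0.13 for the large and 0.15 for the small subunit were the same at 2 decimals.

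In the large subunit Mrpl2, the counterpart of bacterial L2 near the peptidyl transferase centre, had the smallest unadjusted p. It measured 33.4, 30.8 and 34.7 CPM in WT 1 to 3 and 40.0, 37.3 and 37.9 CPM in Het 1 to 3. The groups did not overlap. The means were 33.0 ± 1.96 and 38.4 ± 1.39 CPM (SD, n = 3 each), a log2 fold change of 0.22 (SE 0.09), with an unadjusted p of 0.0438 and an adjusted p of 0.694 in edgeR. Mrpl58, a peptidyl-tRNA hydrolase that frees stalled ribosomes and is built into the large subunit, measured 27.4, 27.0 and 27.7 CPM in WT against 37.2, 30.3 and 30.0 CPM in Het. Its groups did not overlap either, and Het 1 stood well above the rest, at a log2 fold change of 0.25 (SE 0.11).

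Mrpl17, the counterpart of bacterial L17 at the peptide exit tunnel, measured 38.7, 39.1 and 39.7 CPM in WT against 49.1, 47.2 and 39.8 CPM in Het, a log2 fold change of 0.21. Het 3 was level with WT 3, and the other 2 Het libraries were clearly higher. Mrpl52, gained in mitochondria, measured 26.8, 26.5 and 30.7 CPM in WT against 38.1, 33.7 and 28.7 CPM in Het, the largest log2 fold change of the large subunit at 0.26 (SE 0.13). Here the groups overlapped, since Het 3 lay below WT 3. Mrpl38 gave 54.1, 55.2 and 64.3 CPM in WT against 74.9, 63.3 and 65.0 CPM in Het, a log2 fold change of 0.23, also with overlap. Mrpl39 differed from these in its evenness: 36.3, 36.9 and 34.8 CPM in WT against 40.5, 40.8 and 39.5 CPM in Het, a log2 fold change of 0.16 (SE 0.09) without overlap and with Het 3 close to the other Het libraries. Mrpl50 (0.16) and Mrpl37 (0.16) had separate groups, and Mrpl41 (0.23) and Mrpl43 (0.17) did not.

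The exon-free stretches before 4 of these large subunit genes are shown so that members with higher values can be compared. They lie at chr17:46646023-46646228 for Mrpl2 (forward strand), chr11:115403502-115403751 for Mrpl58 (forward), chr7:105811100-105811337 for Mrpl17 (reverse) and chr14:54426659-54426908 for Mrpl52 (forward), all in GRCm38.p6. The ETS core was found in the stretches of Mrpl58, Mrpl17 and Mrpl52. For Mrpl17 the NRF1 core was also found, outside the printed stretch and in a place not located here. None of the 3 motifs was found in the stretch or the whole window of Mrpl2:

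Mrpl2: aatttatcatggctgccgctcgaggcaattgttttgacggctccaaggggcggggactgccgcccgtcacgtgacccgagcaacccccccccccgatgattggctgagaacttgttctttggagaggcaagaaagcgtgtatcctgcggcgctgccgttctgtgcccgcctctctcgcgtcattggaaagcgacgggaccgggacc
Mrpl58: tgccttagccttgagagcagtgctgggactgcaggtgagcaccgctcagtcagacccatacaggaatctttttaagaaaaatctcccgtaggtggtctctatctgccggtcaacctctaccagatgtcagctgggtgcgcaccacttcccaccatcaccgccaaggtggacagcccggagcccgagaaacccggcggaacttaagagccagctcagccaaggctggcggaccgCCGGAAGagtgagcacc
Mrpl17: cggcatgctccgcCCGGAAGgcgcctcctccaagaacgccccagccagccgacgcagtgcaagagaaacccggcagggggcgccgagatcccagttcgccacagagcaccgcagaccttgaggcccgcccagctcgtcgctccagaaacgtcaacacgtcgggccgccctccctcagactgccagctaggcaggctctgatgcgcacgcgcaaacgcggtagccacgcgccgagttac
Mrpl52: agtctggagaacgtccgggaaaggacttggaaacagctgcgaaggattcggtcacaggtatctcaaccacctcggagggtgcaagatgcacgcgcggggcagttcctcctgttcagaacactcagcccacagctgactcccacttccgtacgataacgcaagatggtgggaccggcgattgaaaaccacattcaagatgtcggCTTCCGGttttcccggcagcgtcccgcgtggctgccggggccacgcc

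The most abundant large subunit transcripts by CPM were Mrpl12, Mrpl15 and Mrpl24. Mrpl12, the stalk protein that recruits translation factors, measured 86.2, 85.8 and 98.3 CPM in WT against 109, 98.7 and 88.5 CPM in Het, a log2 fold change of 0.13 (SE 0.11) with overlapping groups. Mrpl24 measured 61.3, 61.0 and 61.6 CPM in WT against 74.1, 66.7 and 61.7 CPM in Het, a log2 fold change of 0.14, with Het 3 level with the WT libraries. Mrpl15, by contrast, measured 70.0, 68.4 and 66.4 CPM in WT against 70.0, 67.8 and 66.3 CPM in Het, with a log2 fold change of -0.00455. Per kilobase of median transcript length, Mrpl18 was highest with 95.2 CPM per kb, next to Mrpl12 with 90.6. The median was 30.0 CPM per kb for the large and 22.4 for the small subunit, where Mrps7 was highest with 53.1.

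Among large subunit members with fold changes near 0, Mrpl3 measured 22.9, 21.5 and 21.6 CPM in WT against 22.2, 22.9 and 20.7 CPM in Het. Mrpl42 (0.00) and Mrpl45 (0.02), an anchor of the ribosome at the inner membrane, were near 0 too and turned to -0.04 and -0.03 with total-count scaling. Values below 0 were those of Mrpl33 (-0.13), Mrpl27 (-0.10) and Mrpl14 (-0.03), of Mrpl15 and Mrpl3 just under 0, and of the little-expressed Mrpl23. The stretch before the Mrpl42 start, chr10:95501950-95502199 (GRCm38.p6, reverse strand), is shown for comparison. This stretch holds none of the 3 motifs. The YY1 core was found for Mrpl42 outside it, in a place not located here. The ETS core was found for Mrpl3, Mrpl27 and Mrpl33:

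Mrpl42: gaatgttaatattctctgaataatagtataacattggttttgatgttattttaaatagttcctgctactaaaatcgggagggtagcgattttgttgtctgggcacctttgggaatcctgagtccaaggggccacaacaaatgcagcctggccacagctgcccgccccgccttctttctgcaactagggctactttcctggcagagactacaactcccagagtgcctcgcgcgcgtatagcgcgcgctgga

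**Figure D3:**
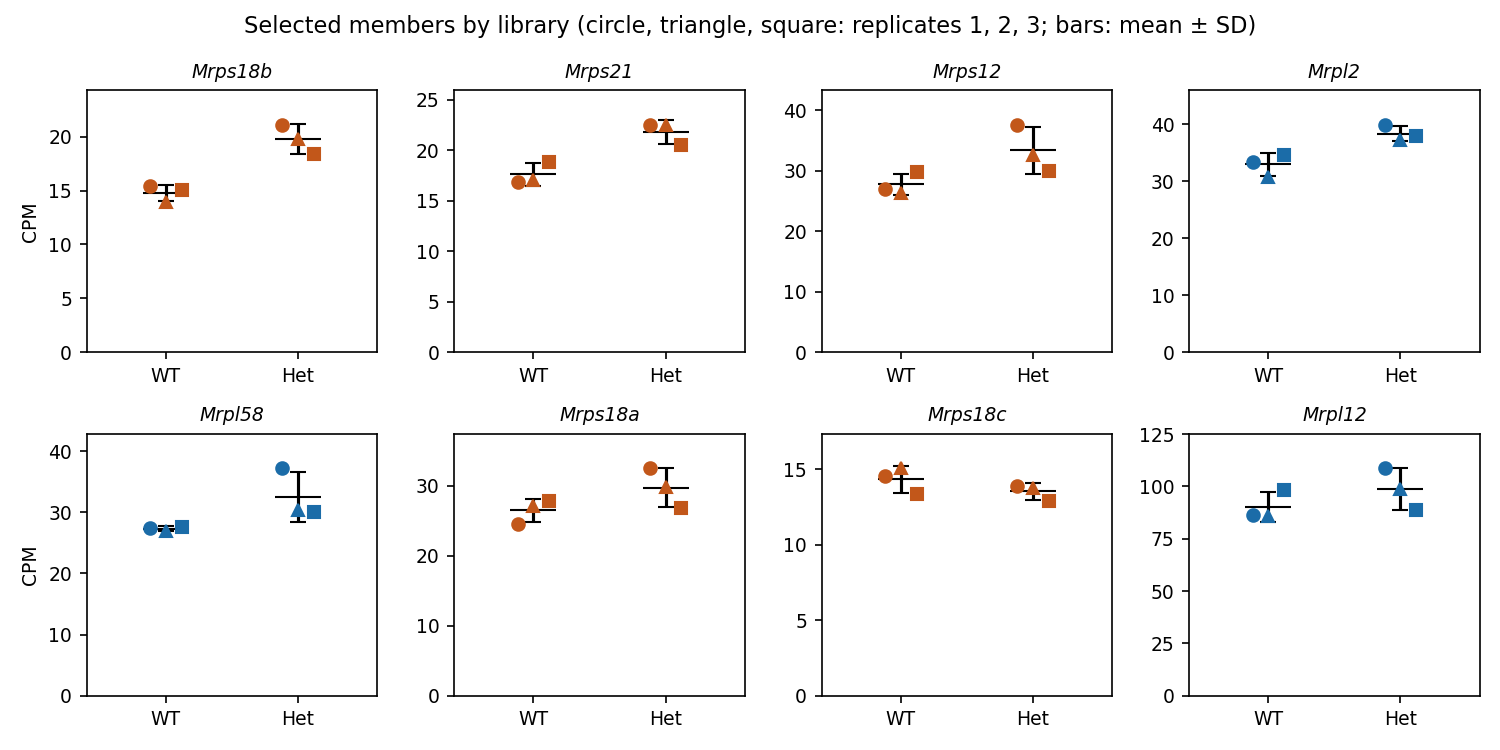
CPM (vertical axes, starting at 0) of 8 members in each WT and Het library, with circles, triangles and squares for libraries 1, 2 and 3 and bars for the mean and SD (n = 3). Mrps18b (means 14.8 and 19.8 CPM), Mrps21, Mrps12, Mrpl2 (33.0 and 38.4 CPM) and Mrpl58 have separate groups, and those of Mrps18a, Mrps18c and Mrpl12 overlap.

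**Figure D4:**
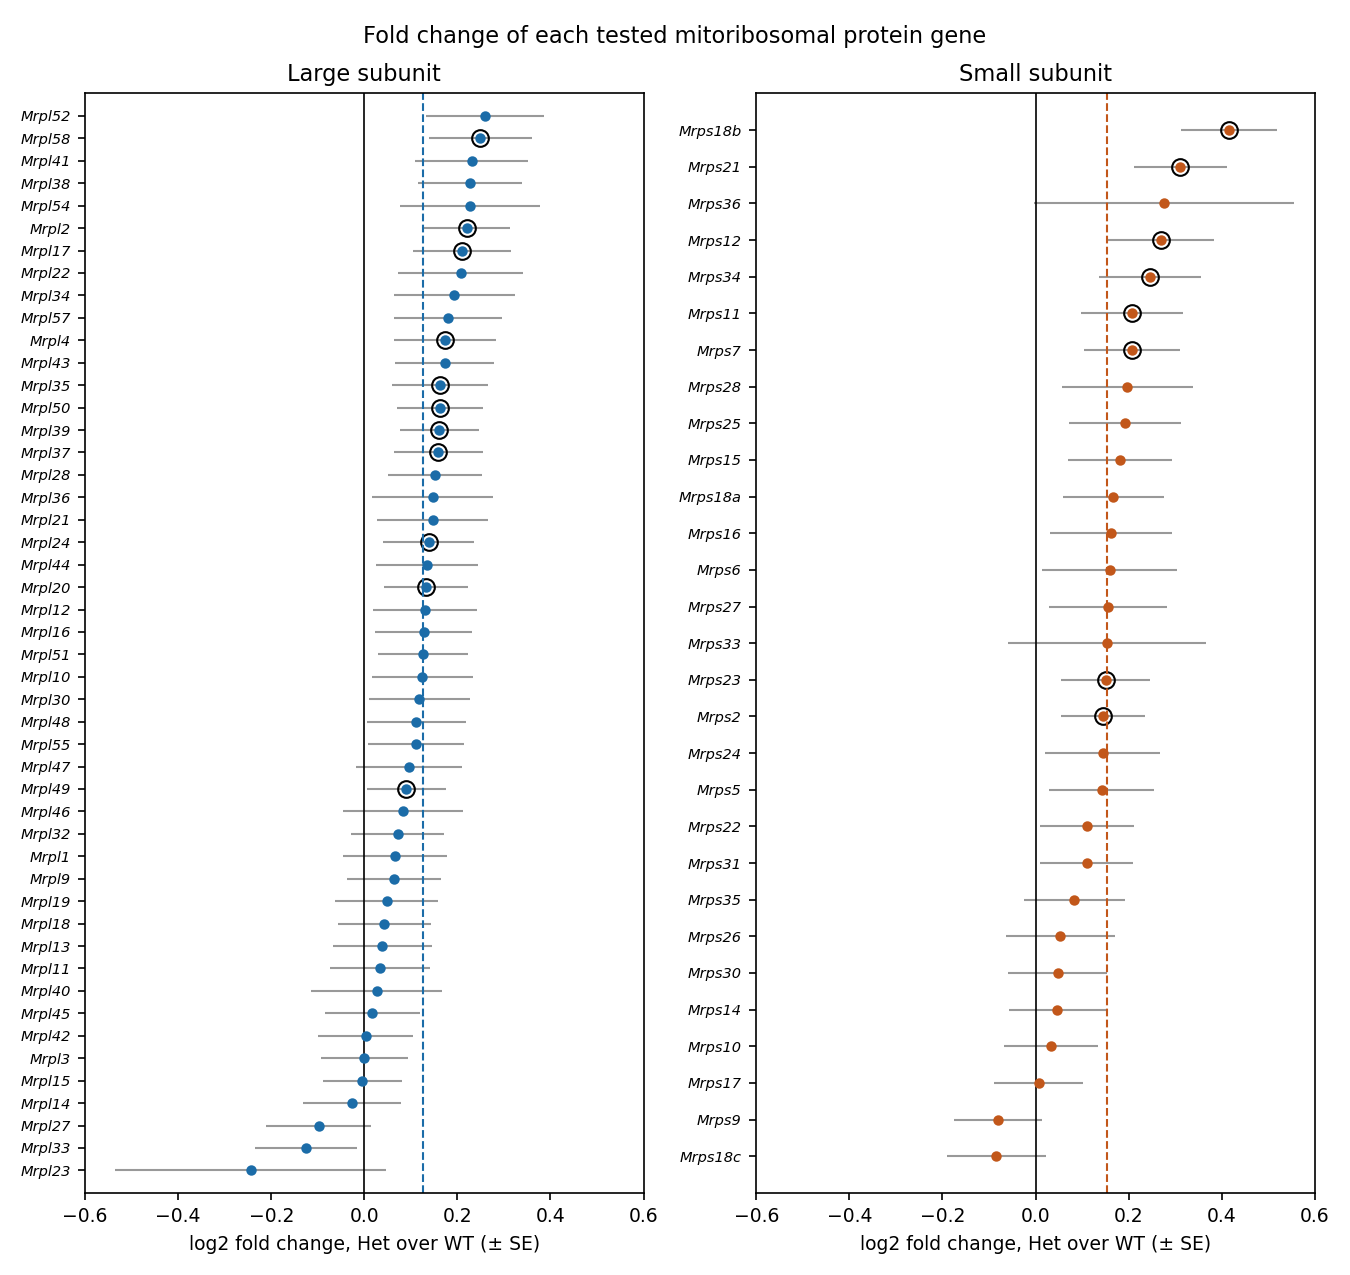
Log2 fold change (Het over WT) of every tested member with its standard error, by subunit. Of the points, 69 lie above 0 and 8 below, and the largest is Mrps18b at 0.42.

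By origin, 31 tested members were gained in mitochondria and 45 have a bacterial counterpart, with Mrps36 in neither class. All 31 of the former had a log2 fold change above 0, at a median of 0.15, although this number was 28 with total-count scaling, 29 in limma-voom, 30 with a replicate block, 25 without Het 1 and 28 to 31 without any other single library. With no filter it was 31 of 32, the exception being Mrpl53. Of the latter, 37 lay above 0 and 8 below, at a median of 0.13. The number below was 14 without Het 1 (median 0.07), 5 without WT 1 and 12 with total-count scaling. The 8 members below 0 were therefore all of bacterial descent. The 2 medians differ by less than the spread within either class, and the difference was not tested.

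Members with few counts could not be judged in the same way. Mrpl53 had 2, 4 and 3 counts in WT and 0, 5 and 0 in Het and was the one member left out by the count filter. A count of 0 still allows up to 3 counts, or 0.0771 CPM in Het 1 and 0.0411 CPM in Het 3. Of its exon bases, 88% are shared on the same strand with the annotated gene Gm42688, the one member for which this share reached 50%, against 0.766% of tested protein-coding genes. Mrpl23 had 33, 42 and 19 counts in WT and 19, 32 and 40 in Het, a log2 fold change of -0.24 with an SE of 0.29. Mrps36, now known as a subunit of the 2-oxoglutarate dehydrogenase complex rather than of the ribosome, had 19, 21 and 15 counts in WT and 15, 26 and 38 in Het, at 0.28 with an SE of 0.28. For both, the error was as large as the difference. Mrpl23 and Mrps36 each have annotated pseudogenes, whose counts in the table were 3 to 5 for Mrpl23-ps1 and 0 to 1 for Mrps36-ps1. It is not known here how reads with several matches were counted.

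Several members share a start region with another protein-coding gene that runs the other way. Such a partner within 1000 bases was found for 19 of the 77 tested members (24.7%), against 10.6% of tested protein-coding genes. Of the partners, 18 were tested, and 16 of these had a log2 fold change above 0, with a median of 0.18. Over all tested genes 49.2% lay above 0. The same share for the divergent partners of other genes was not computed, and a link through shared start regions was not tested. Mrps18b starts 45 bases from Ppp1r10, a regulator of protein phosphatase 1, which had a log2 fold change of 0.16 (edgeR unadjusted p = 0.635).

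The other components of mitochondrial translation had mixed values, and none of their genes passed edgeR's adjusted threshold. Of the 5 tested ribosome proteins without an Mrp name, 3 lay above 0. Gadd45gip1 measured 31.6, 29.8 and 32.5 CPM in WT against 41.3, 34.0 and 33.4 CPM in Het (0.21), and Ptcd3 had -0.18. The list of mitochondrial translation factors had a median of 0.09, with 12 of 16 above 0. Beside factors for steps such as initiation, elongation and release, it holds C1qbp, Mss51, Mtfmt, Oxa1l, Pdf and Taco1. The elongation factor Tufm had 0.23, while the back-translocase Guf1 had -0.31. The median of this list was 0.04 under total-count scaling, 0.15 when Het 3 was left out and 0.14 when Het 1 was the one Het library kept. Genes for assembly of the ribosome and modification of its RNA had a median of 0.11, with 18 of 24 above 0. That median was 0.05 without Het 1, 0.06 without WT 1, 0.07 without Het 2, 0.06 with total-count scaling and 0.16 without both Het 2 and Het 3. Of these, Mettl17 (0.25) and the methyltransferase Mrm1 (0.37) had non-overlapping groups. Genes for mitochondrial aminoacyl-tRNA synthesis had a median of 0.07, with 14 of 20 above 0 and the synthetase Vars2 at 0.26. This list also holds Gatb, Gatc and Qrsl1, which are not synthetases. Its median was 0.03 under total-count scaling, 0.11 when Het 3 was left out and 0.12 when Het 1 was the one Het library kept. Genes for mitochondrial transcription and RNA processing, listed with the DNA replication genes Polg, Polg2, Ssbp1 and Twnk, had a median of -0.02. Of the 19 genes, 9 lay above 0. The median turned to 0.04 to 0.09 when WT 1, WT 2, Het 1 or Het 3 was left out. It was 0.04 with 1 CPM required in 3 libraries. With total-count scaling it was -0.06. Slirp, an RNA-binding protein that stabilises mitochondrial messages, was among the higher ones with 18.7, 18.2 and 18.5 CPM in WT against 25.1, 22.1 and 19.5 CPM in Het (0.26).

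Regulators of mitochondrial biogenesis had mostly lower values in Het, with 9 of 11 tested genes below 0 and a median of -0.17. Gabpa, the DNA-binding subunit of GABP, measured 39.6, 43.2 and 38.2 CPM in WT against 24.1, 38.5 and 32.1 CPM in Het (-0.35), with Het 1 lowest and Het 2 inside the WT range. Without Het 1 the median of this list was -0.10 and Gabpa was at -0.20, and without both Het 2 and Het 3 they were -0.43 and -0.75. The mitochondrially encoded messages themselves had lower values in 7 of 7 tested genes, at a median of -0.18. Their sum was 44690, 40360 and 38200 CPM in WT against 33770, 33550 and 41930 CPM in Het, and the Het 3 sum was between those of the WT libraries. Without Het 3 their median was -0.40, and without Het 2 it was 0.02. It was -0.29 without WT 3, -0.11 without WT 2, -0.30 with no filter and -0.28 without both Het 2 and Het 3. Of the 13 mitochondrial protein genes listed, 9 were in the table, and mt-Atp8, mt-Co3, mt-Nd3 and mt-Nd4l were not analysed here. The 2 mitochondrial ribosomal RNAs together reached at most 1.77 CPM in any of these poly(A)-selected libraries, too few counts to compare. Mitochondrial chaperones and proteases had a median of 0.07, with 11 of 16 above 0. Their median was 0.02 without Het 1, 0.03 without WT 3, 0.02 with total-count scaling and 0.16 without both Het 2 and Het 3.

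**Figure D5:**
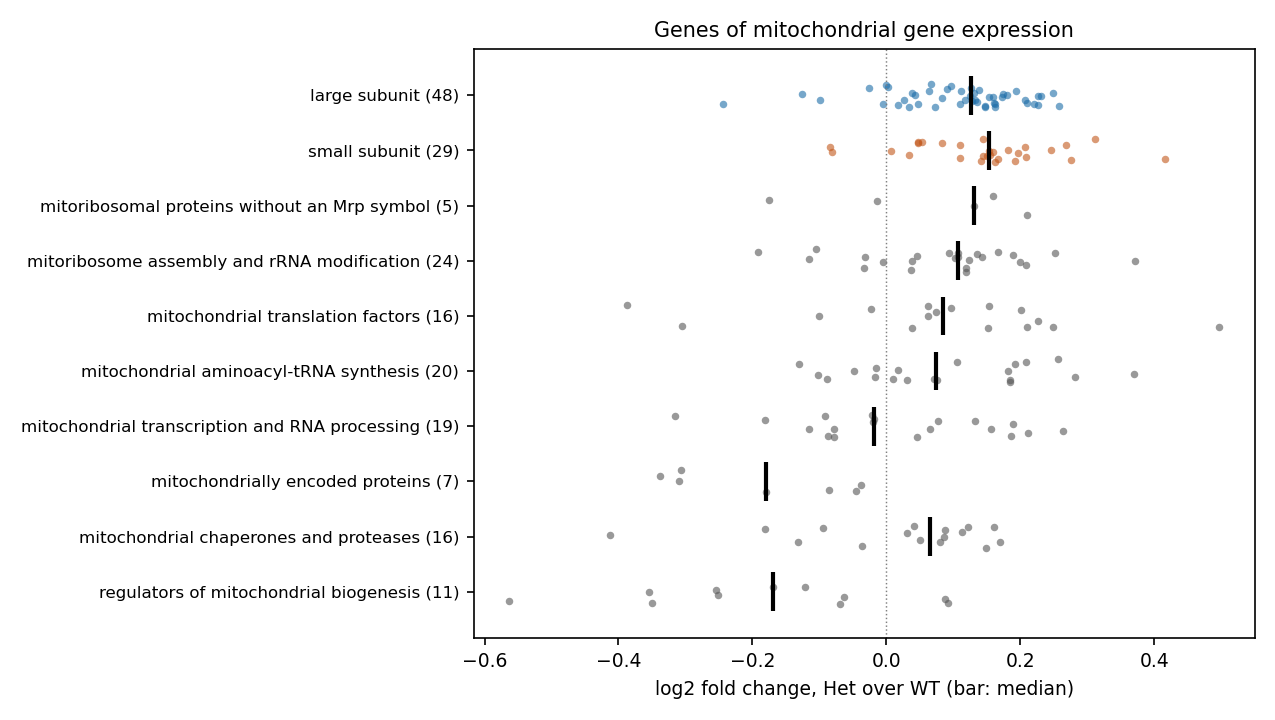
Log2 fold change (Het over WT) of the tested genes in the member sets and in other lists of mitochondrial translation and biogenesis, with medians. The subunits have medians of 0.13 and 0.15, the mitochondrially encoded genes -0.18 and the biogenesis regulators -0.17.

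Marker genes of liver cell types were read beside the members. All 10 hepatocyte markers were tested, and 6 had a log2 fold change above 0. Their sum ran from 133200 to 158200 CPM in WT and from 158300 to 189300 CPM in Het, and was highest in Het 1. A single marker averaged 118400 CPM and so made up most of this sum, while the median marker mean was 4804 CPM. Marker by marker, Het 1 was highest for 3 of the 10, WT 1 for 3, Het 3 for 3 and WT 3 for 1. Kupffer cell markers were above 0 in 1 of 8 and summed to 443.8 to 700.9 CPM in WT and 328.5 to 607.4 CPM in Het. WT 1 was the highest library for 6 of these 8 and Het 2 the lowest for 7. Their median log2 fold change was -0.19, but 0.06 without WT 1 and 0.03 without Het 2. Leukocyte markers were above 0 in 2 of 7, with sums of 14.1 to 23.4 CPM in WT and 9.17 to 15.5 CPM in Het. The median marker mean was only 0.81 CPM, and Het 2 was the lowest library for 4 of the 7. Their median log2 fold change was -0.335, but -0.80 without Het 1 and -0.125 without Het 2. It was 0.02 when Het 1 was the one Het library kept. Stellate cell markers (3 of 8 above 0) summed to 454.2 to 543.3 CPM in WT and 497 to 502.2 CPM in Het. Sinusoidal endothelial markers (4 of 8) summed to 368 to 424.4 CPM and 339.2 to 461.5 CPM. The cholangiocyte sums were 47.8 to 61.9 and 45.2 to 54.8 CPM, and the erythroid sums 99.5 to 269.1 and 110.3 to 165.3 CPM. Adipocyte, exocrine pancreas and skeletal muscle markers summed to at most 2.87, 19.5 and 1.22 CPM in any library. Every marker in the table had counts in at least 1 library. The part of the hepatocyte, Kupffer and leukocyte markers and of depth in the members' values was not tested.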

How the data were processed

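The authors deposited read counts per Ensembl gene, in columns marked raw per the file headers, for 6 libraries. The tools named in the submitters' processing notes are STAR 2.5.3a, HTSeq 0.6.1p1, cutadapt 1.10, DESeq2 1.16.1 and bcl2fastq 2.17.1.14, and the build is mm10. The annotation release, strand setting and handling of multi-mapped reads were not given in the sources used here. A further 12 per-sample columns and the authors' deposited table of differential expression were left out.

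Genes were filtered with edgeR's filterByExpr, which left 14606 genes with 99.955% of counts, and scaled by TMM. The genotypes were compared with the two-sided quasi-likelihood test of edgeR 4.0.16 (R 4.3.3) in a model of genotype alone. P-values were adjusted by the Benjamini-Hochberg method over every tested gene, with calls at 0.05. Standard errors come from the F statistic. The biological coefficient of variation was 18.4%. DESeq2 1.42.0, limma-voom (limma 3.58.1), other scalings and filters, a replicate block and leaving out libraries were the alternatives. Relative levels are log2 CPM with a prior count of 2. The scripts were tested on simulated data.

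The members and gene lists were chosen with earlier results of these data known. The bacterial or mitochondrial origin of members was assigned by hand after the files were read. Named members were the 10 per subunit with the smallest unadjusted p, the 3 most and 2 least abundant, the 4 with the smallest fold change, the S18 family, Mrps30, Mrps36 and the filtered member. Of these, Mrpl22 (log2 fold change 0.21, SE 0.13) and Mrps33 (0.15, SE 0.21), both among the least abundant, are given only here. In other lists the 2 genes with the smallest p were eligible, and marker lists are given mainly as sums. Members below 0 outside this rule were named after their values were seen. Overlaps and neighbours come from GENCODE M21 (GRCm38) and promoters from RefSeq. The YY1 core was shortened by 1 base after its first result was seen, and both versions are given.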

Additional observations from a re-analysis of the deposited data

How the results depend on the processing

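No mitochondrial ribosomal protein passed the adjusted threshold under any alternative run. Over all genes, edgeR called 0, DESeq2 66, edgeR without a filter 73, and edgeR without 1 library 0 to 1. Members at an unadjusted p under 0.05 numbered 4, and 2 each with DESeq2, total-count scaling and the replicate block, 16 with Het 2 and Het 3 both left out, and 1 to 14 without 1 library. Same-numbered libraries had correlated deviations of -0.07, 0.12 and 0.15, so the numbers were not taken to pair them. The large subunit median ran from 0.08 to 0.17 without 1 library and was 0.18 without Het 2 and Het 3. The small subunit median ran from 0.10 to 0.22 without 1 library and was 0.27 without Het 2 and Het 3, a fit in which the single Het library left is taken to vary as WT does. The Ptprd log2 fold change passed at -0.98 in DESeq2 and at -0.98 without a filter, and ran from -1.13 to -0.87 without 1 library. Of 538 values of 36 named members under alternatives, 508 kept their sign and 30 did not. Mrpl15 turned to 0.000284 without a filter and 0.0376 without Het 2 and Het 3. Mrpl3 turned to 0.000492 with RLE scaling, 0.00284 with upper-quartile scaling, 0.00458 without a filter and 0.0194 without Het 2 and Het 3. Mrpl42 turned to -0.00394 in limma-voom, -0.0409 with total-count scaling and -0.000525 with the replicate block. With total-count scaling Mrpl45 was -0.0282, Mrps10 -0.00896 and Mrps17 -0.0372. Without 1 library, Mrpl15 ran from -0.0309 to 0.0140, Mrpl3 from -0.0297 to 0.0407, Mrpl42 from -0.0635 to 0.0725, Mrpl45 from -0.0355 to 0.103, Mrps10 from -0.0139 to 0.0916, Mrps14 from -0.0166 to 0.123, Mrps17 from -0.0469 to 0.0597 and Mrps30 from -0.0473 to 0.0950. The cause of these turns was not tested. With 1 CPM required in 3 libraries, Mrpl23 and Mrps36 have no value. Depth limits Mrpl53, Mrpl23 and Mrps36.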
